A study of Mus musculus with 12 samples.

Results

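Messenger RNA of the nuclear genes for oxidative phosphorylation was examined in immature mouse thymocytes with and without the zinc finger factors Zfp148 and Zfp281. The genes were chosen by symbol: Nduf subunit symbols for complex I, Sdha to Sdhd for complex II, Uqcr symbols for complex III, Cox4 to Cox8 symbols for complex IV and Atp5 symbols for complex V, without pseudogene rows. This gave 84 of the 53656 gene rows, with 37 in complex I, 4 in complex II, 8 in complex III, 18 in complex IV and 17 in complex V. A filter on low counts kept 78 of them among the 13383 genes tested. The 6 that did not pass it were Ndufa4l2, Cox7b2, Cox8b, Cox8c, Cox6a2 and Cox7a1, with totals of 0, 0, 1, 1, 11 and 75 counts over all 12 libraries. They are mainly isoforms used in particular tissues such as muscle, testis or hypoxic cells. The symbol rule also takes in Atp5s and Atp5sl, which are not subunits of the ATP synthase, and it puts Ndufa4, now placed with cytochrome c oxidase, in complex I.

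Oxidative phosphorylation is carried out in the inner mitochondrial membrane. Complex I takes electrons from NADH and complex II takes them from succinate, complex III passes them to cytochrome c, and complex IV hands them to oxygen. Complexes I, III and IV pump protons, and complex V, the ATP synthase, uses the proton gradient to make ATP. Most subunits are encoded in the nucleus, a small set is encoded in mitochondrial DNA, and assembly factors join them. In thymocytes the demand on this machinery changes with proliferation, selection and the choice between the CD4 and CD8 lineages.

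Thymocytes were sorted from thymus in 4 groups of 3 libraries. All mice carried floxed alleles on both copies of Zfp148 and Zfp281, and the double knockout (dKO) adds Cre recombinase driven by Cd4, which acts from the double-positive stage on. Controls lack Cre, and effects of Cre and of losing both genes cannot be told apart. ImCD4 cells were CD44low, CD4+, CD8-, H2-Kb- and CD69+, and ImCD8 cells were CD44low, CD8+, CD4-, TCRb+ and CD69+. The labels give no ages and do not say whether the replicates of a group are different mice, so the p-values rest on a spread that may be technical. In the 6 ImCD8 libraries the genotype field is the opposite of the title, and groups follow the titles. The level of each targeted gene goes with the titles in all 12 libraries: Zfp148 was 177 to 182 CPM (counts scaled to a common library size) in control ImCD4 and 63.0 to 68.9 CPM in dKO ImCD4, 162 to 171 CPM in control ImCD8 and 45.6 to 62.8 CPM in dKO ImCD8. Zfp281 was 441 to 562 CPM in control ImCD4 against 16.2 to 21.4 CPM in dKO ImCD4, and 112 to 128 CPM against 10.2 to 14.9 CPM in ImCD8.

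The libraries held 7315833 to 10943143 gene counts. Replicate 3 of each group stood apart on the third principal component, which carried 5.31% of the variance. The gates matched their markers, with Cd4 at 1089 to 1417 CPM in ImCD4 and 1.4 to 11.3 CPM in ImCD8, and Cd8a at 23.0 to 89.1 CPM in ImCD4 and 1606 to 1906 CPM in ImCD8. Within ImCD4, Cd4 did not overlap between control (1089 to 1154 CPM) and dKO (1338 to 1417 CPM). In that comparison 1 of 5 T cell markers was called higher and 1 lower. Of 3 CD8 gate markers 1 was called higher, and of 3 CD4 gate markers 0 were called, where 13.4% of all genes were. Their part in the results was not tested. The ImCD4 control and dKO libraries did not overlap in gene counts (8276742 to 9173424 against 9319732 to 10943143) or in the share of reads outside genes (13.6% to 16.4% against 10.5% to 12.9%) or of ambiguous reads (5.37% to 5.46% against 5.55% to 5.67%), and the part of these differences in the results below was not tested. Summed levels of the marker lists of other cell types overlapped between control and dKO ImCD4: 71.4 to 94.7 against 63.8 to 90.2 CPM for 5 B cell markers, 66.6 to 74.9 against 72.5 to 78.2 CPM for 5 myeloid and dendritic markers, 0 to 11.4 against 3.35 to 14.7 CPM for 5 erythroid and platelet markers, and 24.9 to 35.9 against 26.6 to 37.7 CPM for 6 thymic epithelial markers. Of the B cell markers, Cd79b did not overlap (1.59 to 3.43 against 3.74 to 6.32 CPM). Of the thymic epithelial markers, Epcam did not overlap (3.92 to 4.59 against 5.36 to 6.84 CPM). The part of either gene was not tested. In bulk RNA, fewer cells of a type and less RNA per cell cannot be told apart.

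The promoters of 3 members that passed a dKO test are printed first: those of Cox8a and Atp5h, called higher in dKO ImCD4, because they hold a motif searched here, and that of Cox7b because it was the single member called in ImCD8. They are 300 bases, from 250 before to 50 after the annotated start, in RefSeq GRCm38.p6, read 5′ to 3′ on the gene's strand. Capitals mark the ETS core CCGGAAGT, the letters bound by factors of the GABP family, here read on the opposite strand. Cox8a (chr19:7217567-7217866, minus strand) holds it at positions 245 and 282 from the window's 5′ end, Atp5h (chr11:115419870-115420169, minus strand) holds it at position 212, and Cox7b (chrX:106015450-106015749, plus strand) has none of the motifs searched.
Cox8a: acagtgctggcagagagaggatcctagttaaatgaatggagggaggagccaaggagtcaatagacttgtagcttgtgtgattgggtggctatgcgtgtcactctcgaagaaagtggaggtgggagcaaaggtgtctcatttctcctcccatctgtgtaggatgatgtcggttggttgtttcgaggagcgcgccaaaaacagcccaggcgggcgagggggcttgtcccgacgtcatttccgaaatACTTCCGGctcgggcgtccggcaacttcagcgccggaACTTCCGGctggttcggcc
Atp5h: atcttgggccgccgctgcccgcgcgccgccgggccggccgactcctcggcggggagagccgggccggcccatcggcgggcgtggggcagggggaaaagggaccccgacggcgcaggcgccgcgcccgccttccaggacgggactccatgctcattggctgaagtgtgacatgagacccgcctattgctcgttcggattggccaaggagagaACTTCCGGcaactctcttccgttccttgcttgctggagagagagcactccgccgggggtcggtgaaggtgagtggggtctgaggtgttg
Cox7b: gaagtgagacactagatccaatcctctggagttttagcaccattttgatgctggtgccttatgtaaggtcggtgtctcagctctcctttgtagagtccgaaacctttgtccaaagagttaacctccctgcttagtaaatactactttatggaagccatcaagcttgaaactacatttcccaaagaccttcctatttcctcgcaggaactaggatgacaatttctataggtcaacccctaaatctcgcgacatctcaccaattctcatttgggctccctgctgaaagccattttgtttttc

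The promoter table had an entry for 66 of the 84 members. On either strand, the core CGCATGCGC of NRF1, a factor known to act on respiratory genes, occurred in 8 of the 66 (12.1%), against 1.95% of 27025 gene promoters of the same length. These were Ndufa8 and Ndufa11 of complex I, Uqcr11 and Uqcrc1 of complex III, Cox6a1 of complex IV, and Atp5g2, Atp5k and Atp5l of complex V. None of these 8 was called in a dKO comparison. The ETS core occurred in 5 of the 66 (7.58%, against 4.31% of all promoters), in Ndufs3, Uqcrh, Uqcr11, Cox8a and Atp5h. Ndufs3, Uqcrh and Uqcr11 were not called in a dKO comparison. Of the other members called in ImCD4, Sdhb, Sdhd, Ndufs7 and Atp5b hold none of the motifs searched, and Uqcrq had no promoter entry. A G-rich core, GGGGAGGGG, of the kind that Zfp148 and Zfp281 are known to bind, occurred in 3 of the 66 (4.55%, against 7.20% of all promoters), in Ndufb6, Cox6b2 and Atp5j, of which none was called in a dKO comparison. These matches describe letters in the window and are no evidence of binding.

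The members took 1.2% to 1.45% of gene counts in each library. On the scale of CPM per kilobase of transcript, the median member stood at 99.5 in complex I, 118 in complex II, 210.0 in complex III, 227 in complex IV and 291 in complex V. The highest member of each complex on that scale was Ndufa4 at 485 in complex I, Sdhb at 268 in complex II, Uqcrq at 462 in complex III, Cox6a1 at 537 in complex IV and Atp5b, the catalytic beta subunit of the ATP synthase, at 818 in complex V. The median pooled SD of log2 CPM within groups was 0.093 over the 78 members and 0.173 over all genes tested. These medians were not matched for level, so they do not show that members are steadier than other genes of like level. The largest spreads among the members were at low levels: 0.69 in Cox4i2, 0.33 in Cox6b2 and 0.24 in Atp5s. The steadiest member was Ndufa9, a complex I subunit, which lay between 85.0 and 87.0 CPM in all 6 ImCD4 libraries.

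In ImCD4, the summed level of every complex was higher in each dKO library than in any control library. Complex I summed to 3339, 3275 and 3206 CPM in the control replicates 1, 2 and 3 and to 3434, 3419 and 3445 CPM in dKO. Complex II summed to 849, 865 and 817 CPM against 952, 1024 and 986 CPM, and complex III to 1294, 1263 and 1251 CPM against 1358, 1377 and 1428 CPM. The differences were small beside the level itself in complex I and larger in complex II. Complex IV summed to 1780.2, 1706 and 1700.1 CPM against 1921, 1833 and 1909 CPM, and complex V to 4868, 4858 and 4696 CPM against 5323, 5515 and 5619 CPM. The ratio of dKO to control mean was 1.05 in complex I, 1.17 in complex II, 1.09 in complexes III and IV and 1.14 in complex V. Sums over a complex were not tested, and abundant members weigh most in them. In complex V the mean of Atp5b alone went from 1400 to 1743 CPM, where the sum went from 4807 to 5486 CPM. In complex II the mean of Sdhb alone went from 286 to 368 CPM, where the sum went from 844 to 987 CPM. A higher sum therefore does not mean that every member rose.

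**Figure D1:**
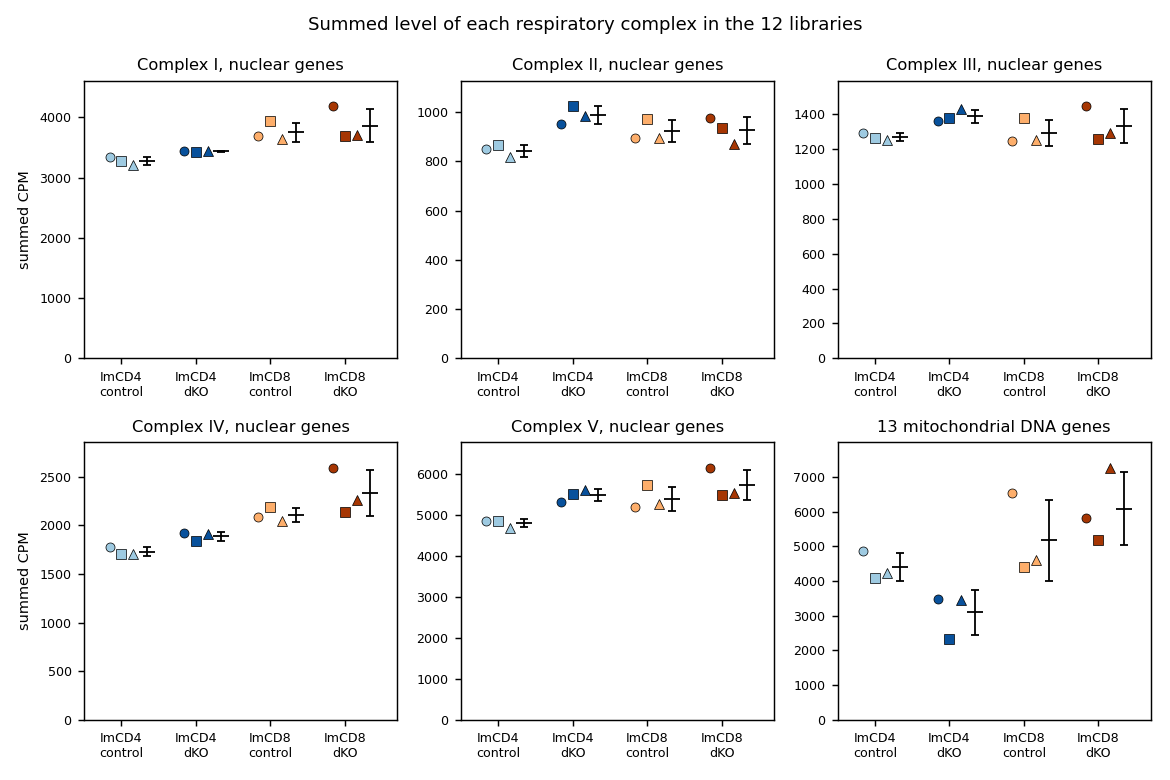
Summed CPM of the nuclear genes of each complex, and of the 13 protein genes of mitochondrial DNA, in the 12 libraries (circle, square and triangle: replicates 1, 2 and 3; bar: mean and SD, n = 3; vertical axes start at 0). For all 5 nuclear sums the dKO ImCD4 libraries lie above the control ImCD4 libraries, while the ImCD8 groups overlap; the mitochondrial DNA sum is lower in dKO ImCD4.

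In the ImCD4 comparison 7 of the 78 tested members (9.0%) passed the test, all of them higher in dKO, and none was lower. Over all genes tested 13.4% passed, and 7.26% of all genes were called higher and 6.16% lower. The members' share called was thus below the background, and their share called higher was near it. The directions were uneven: 62 of the 78 members had a positive log2 fold change, where 7027 of the 13383 genes tested did. The groups did not overlap for 31 members higher in dKO (39.7%, against 18.1% of all genes) and 4 lower (5.1%, against 15.7%). The 4 lower were Ndufb2, Ndufs4, Cox6b2 and Atp5sl. At an unadjusted p under 0.05 there were 19 higher and 1 lower member, where 27.3% of all genes reached that level. The median log2 fold change was 0.10 over the members and 0.02 over all genes. By complex it was 0.05 in complex I, 0.21 in complex II, 0.12 in complex III, 0.13 in complex IV and 0.13 in complex V. The median of complex I was 0.03 without control ImCD4 replicate 3 and 0.07 without control ImCD4 replicate 2, and that of complex V was 0.08 without dKO ImCD4 replicate 3. These members are not independent of each other, and no test was made over the list. Significance here and below is by edgeR's quasi-likelihood test, with Benjamini-Hochberg adjustment across the 13383 genes and a threshold of 0.05, and log2 fold changes carry their SE.

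**Figure D2:**
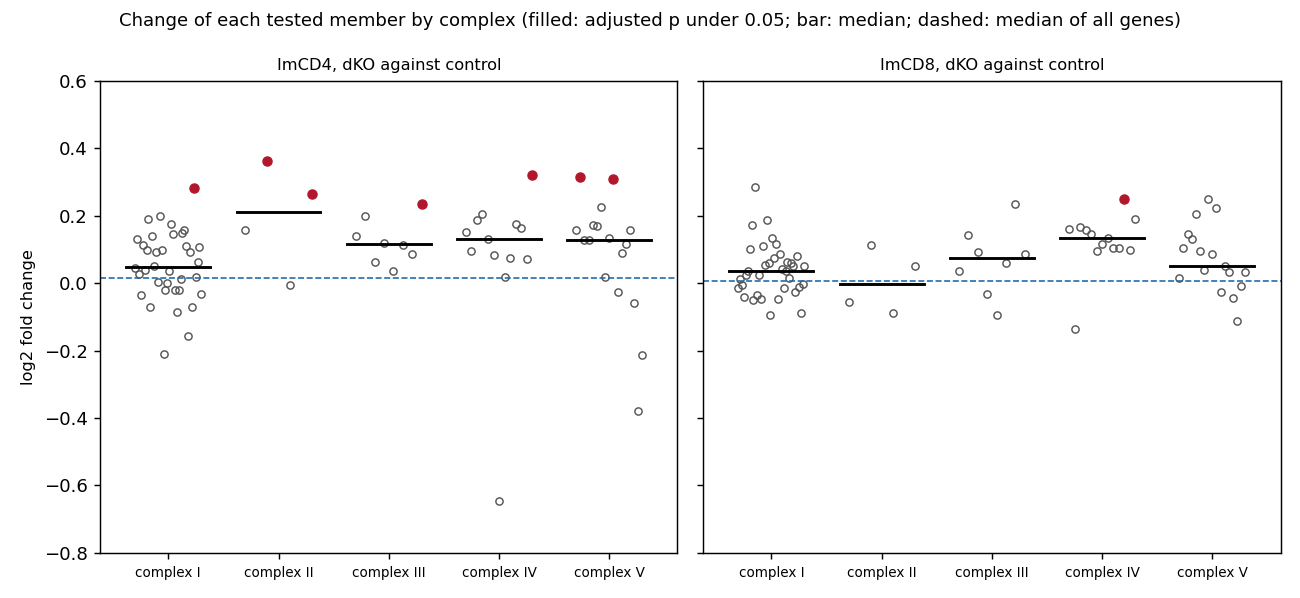
Log2 fold change of dKO against control for each tested member, by complex, in ImCD4 and in ImCD8 (filled: adjusted p under 0.05; bar: median of the complex; dashed line: median of all genes). In ImCD4 the 7 called members are spread over all 5 complexes and the lowest point is Cox6b2, at -0.65; in ImCD8 only Cox7b is called.

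In complex I, 1 of 36 tested members was called. Ndufs7, an iron-sulfur subunit of the module that hands electrons to ubiquinone (chromosome 10, 80249121 to 80256794, plus strand, GRCm38), was at 91.4, 97.9 and 86.7 CPM in control ImCD4 and 114, 103 and 118 CPM in dKO ImCD4. Every dKO library was above every control library. Its log2 fold change was 0.28 ± 0.08 (edgeR adjusted p = 0.0272). The call was lost when control replicate 1 or 3, or dKO replicate 1 or 3, was left out. The other 35 had log2 fold changes from -0.21, in Ndufb2, to 0.20, in Ndufb10. Ndufb10, a subunit of the membrane arm, was the member just above the threshold, at 80.7, 74.4 and 75.0 CPM against 85.9, 87.7 and 90.6 CPM (0.20 ± 0.07, edgeR adjusted p = 0.062), with no overlap between the groups. By module, none of the 10 tested subunits of the NADH-oxidising N module was called, and Ndufs7 was the 1 of 5 in the Q module. None of the remaining 21 was called. These were put in the membrane arm by default, with Ndufa4 and Ndufa9 among them.

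In complex II, 2 of the 4 subunits were called. Sdhb, the iron-sulfur subunit of succinate dehydrogenase (chromosome 4, 140961203 to 140979193, plus strand), was at 291, 281 and 287 CPM in control ImCD4 and 342, 369 and 394 CPM in dKO ImCD4. The lowest dKO library was well above the highest control library. The log2 fold change was 0.36 ± 0.07, with an edgeR adjusted p of 0.00306, and it was the largest among the 78 members. Sdhd, a membrane anchor subunit (chromosome 9, 50596357 to 50603812, minus strand), was at 122, 121 and 111 CPM against 139, 150.0 and 136 CPM, again with no overlap (0.26 ± 0.07, edgeR adjusted p = 0.0218). The call of Sdhd was lost without control replicate 3 or without dKO replicate 2. The flavoprotein subunit Sdha was at 325, 353 and 318 CPM against 365, 390.1 and 356 CPM and did not pass the test (0.16 ± 0.07, edgeR adjusted p = 0.18), although its groups did not overlap. The other anchor, Sdhc, was at 110.3, 111 and 102 CPM against 107, 115 and 100.1 CPM, which overlapped.

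In complex III, 1 of 8 members was called and all 8 had a positive log2 fold change. Uqcrq, a small subunit of the cytochrome bc1 complex (chromosome 11, 53427922 to 53430831, minus strand), was at 199.6, 199 and 199 CPM in control ImCD4 and 234, 228 and 241 CPM in dKO ImCD4. The control libraries were nearly equal and all lay below the dKO libraries. The log2 fold change was 0.24 ± 0.07, with an edgeR adjusted p of 0.0409. This call was kept in 10 of the 23 alternatives, and was lost when any 1 of the 6 ImCD4 libraries, or control ImCD8 replicate 1, was left out.

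In complex IV, 1 of 13 tested members was called. Cox8a, the broadly expressed form of a small subunit of cytochrome c oxidase (chromosome 19, 7215153 to 7217616, minus strand), whose promoter is the first printed above, was at 129.8, 126 and 118 CPM in control ImCD4 and 151, 154 and 162 CPM in dKO ImCD4. The groups did not overlap. The log2 fold change was 0.32 ± 0.08, with an edgeR adjusted p of 0.0113, lost without control replicate 3 (adjusted p = 0.0527). Cox5b, a subunit near the matrix side, was at 87.5, 93.8 and 88.1 CPM against 104, 99.8 and 107 CPM, with no overlap, and missed the threshold (0.21 ± 0.07, edgeR adjusted p = 0.075). The lowest value of the complex was that of Cox6b2, the testis-type partner of Cox6b1, at 4.0, 4.64 and 4.13 CPM against 3.48, 2.78 and 1.82 CPM (-0.65 ± 0.27, edgeR adjusted p = 0.133). Its groups did not overlap either.

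In complex V, 2 of 17 members were called. Atp5b (chromosome 10, 128083273 to 128090391, plus strand) was at 1397, 1463 and 1339.9 CPM in control ImCD4 and 1674, 1833 and 1722 CPM in dKO ImCD4. Every dKO ImCD4 library was above every control library. The log2 fold change was 0.32 ± 0.07 (edgeR adjusted p = 0.00947), and the call was lost without dKO replicate 2 (adjusted p = 0.0529). Atp5h, subunit d of the peripheral stalk (chromosome 11, 115415689 to 115419962, minus strand), was at 235, 228 and 221 CPM against 272, 282 and 293 CPM, with no overlap (0.31 ± 0.07, edgeR adjusted p = 0.0113). Among the genes of the c ring, the rotor through which protons pass, Atp5g1 was at 167, 168 and 164 CPM against 186, 188 and 212 CPM, with no overlap and an edgeR adjusted p of 0.089 (0.23 ± 0.08). Atp5g2 (0.02 ± 0.11) and Atp5g3 (0.13 ± 0.08) did not pass either. The other tested genes of complex V ran from -0.38 in Atp5s, one of the symbols that name no subunit, to 0.17.

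**Figure D3:**
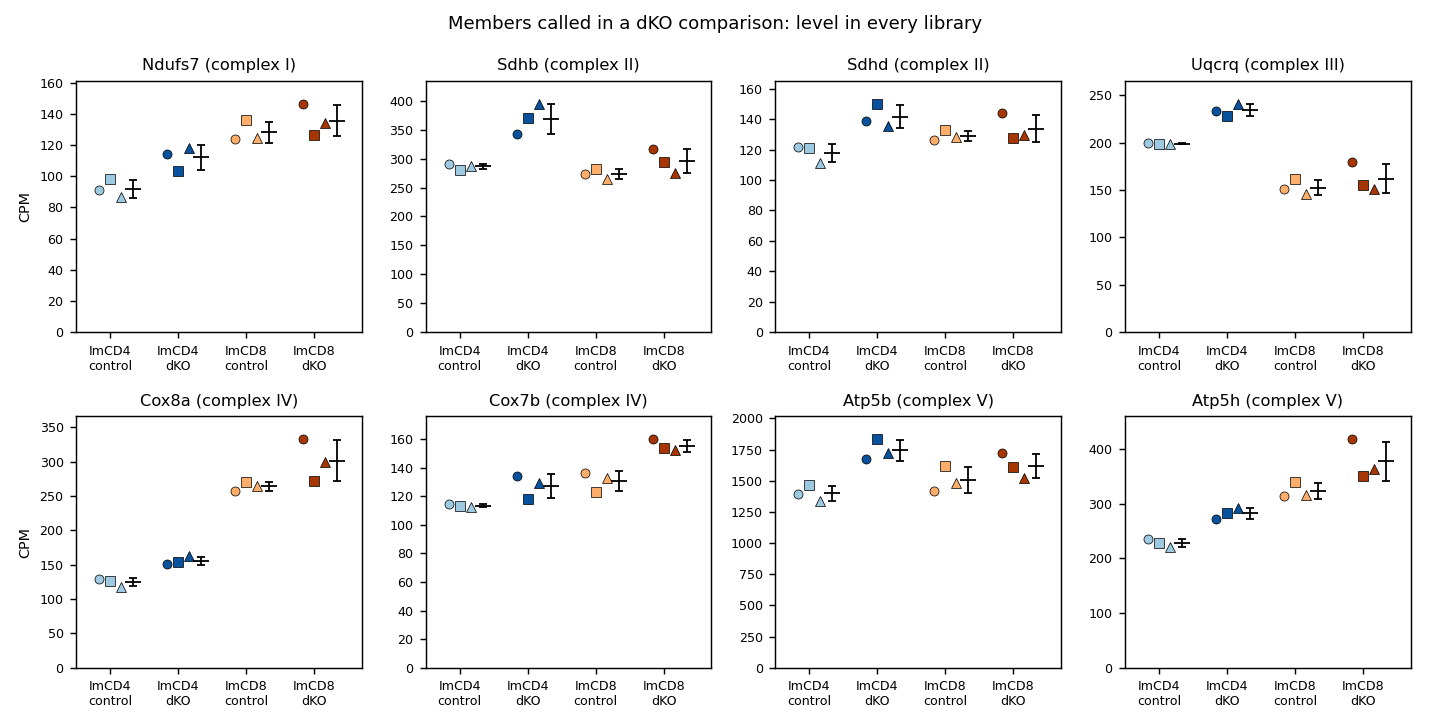
CPM of the 8 members called in a dKO comparison, in each of the 12 libraries (circle, square and triangle: replicates 1, 2 and 3; bar: mean and SD, n = 3; vertical axes start at 0). In the 7 members called in ImCD4 the dark blue dKO libraries lie above the light blue controls; Cox7b is the member called in ImCD8.

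In ImCD8 the same loss came with fewer calls. Cox7b alone passed the test, 1 of 78 (1.3%), where 6.14% of all genes did; 2.62% of all genes were called higher and 3.53% lower. Cox7b, a small subunit of complex IV (chromosome X, 106015700 to 106022450, plus strand), was at 136, 123 and 133 CPM in control ImCD8 and 159.9, 154 and 152 CPM in dKO ImCD8. All dKO libraries were above all controls. The log2 fold change was 0.25 ± 0.07 (edgeR adjusted p = 0.0384), and the call was lost when any 1 of the 6 ImCD8 libraries, or control ImCD4 replicate 1 or 2, was left out. In ImCD4 the same gene was at 114, 113 and 113 CPM against 134, 118 and 129 CPM, with no overlap and without passing the test (0.16 ± 0.07, edgeR adjusted p = 0.131).

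The member just above the threshold in ImCD8 was Atp5h, at 313, 339 and 317 CPM in control and 418, 350.4 and 364 CPM in dKO, with no overlap (0.22 ± 0.07, edgeR adjusted p = 0.0887). Its largest value came from dKO replicate 1. Cox8a was at 257, 269.6 and 265 CPM against 332, 272 and 299 CPM, also with no overlap (0.19 ± 0.07, edgeR adjusted p = 0.163). The groups did not overlap for 10 members that were higher in dKO ImCD8 (12.8%, against 10.3% of all genes) and for 1 that was lower, Ndufa9 (1.3%, against 11.5%). Of the 78 members 56 had a positive log2 fold change, where 6876 of the 13383 genes tested did. The median log2 fold change was 0.06 over the members and 0.01 over all genes. At an unadjusted p under 0.05 there were 9 members, all higher, where 18.8% of all genes reached that level. By complex, the medians in ImCD8 were 0.04, -0.003, 0.07, 0.14 and 0.05 for complexes I to V.

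The ImCD8 sums were less even within groups. Complex IV summed to 2089, 2184 and 2042 CPM in control ImCD8 and to 2593, 2137 and 2264 CPM in dKO ImCD8. dKO replicate 1 was the highest of the 6 and the other dKO libraries lay within or just above the control range. Complex V summed to 5194, 5732 and 5262 CPM against 6160.2, 5493 and 5539 CPM, in the same pattern. All 5 sums overlapped between the ImCD8 groups, with a ratio of dKO to control mean of 1.03, 1.005, 1.03, 1.11 and 1.06 for complexes I to V. Without dKO ImCD8 replicate 1 the median log2 fold change of complex I was -0.03, that of complex III -0.01, that of complex IV 0.04 and that of all members -0.01. The 6 thymic epithelial markers summed to 93.3 to 98.6 CPM in control ImCD8 and 107 to 119 CPM in dKO ImCD8, mostly from Ly75. Of the 2 tested, 1 was called higher. Epcam was at 8.29, 9.58 and 8.93 CPM in control ImCD8 and 22.0, 15.1 and 11.4 CPM in dKO ImCD8, without overlap. Foxn1 and Krt5 were at or near 0, and the part of these markers in the ImCD8 values was not tested. The 5 B cell markers summed to 309 to 401 CPM in control ImCD8 and 365 to 497 CPM in dKO ImCD8, which overlapped, and 1 of the 3 tested was called higher. Cd79b, a part of the B cell receptor, was at 8.18, 11.7 and 10.5 CPM in control ImCD8 and 21.8, 20.1 and 34.0 CPM in dKO ImCD8, without overlap, with Ms4a1 at or near 0; their part in the ImCD8 values was not tested either.

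No member was called for the difference between the ImCD4 and ImCD8 effects, where 0.433% of all genes were. At an unadjusted p under 0.05 there were 2 members, Sdhb and Sdhd, where 9.98% of all genes reached that level. The difference was 0.25 ± 0.10 for Sdhb (edgeR adjusted p = 0.407) and 0.21 ± 0.10 for Sdhd (edgeR adjusted p = 0.499). DESeq2 and limma-voom called no member either. The calls made in ImCD4 and not in ImCD8 are therefore not shown to differ between the populations.

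More members were called between the populations. Their gates differ in more than CD4 and CD8, since only ImCD4 was gated as H2-Kb- and only ImCD8 as TCRb+. Effects of lineage and of the gate or stage of the cells cannot be told apart. Lineage below names this comparison of populations. In controls 31 of the 78 members (39.7%) were called, 28 higher in ImCD8 and 3 lower, where 45.3% of all genes were called, 23.1% higher and 22.1% lower. The groups did not overlap for 43 members that were higher in ImCD8 (55.1%, against 28.8% of all genes) and for 6 that were lower (7.7%, against 27.6%). The median log2 fold change of ImCD8 against ImCD4 was 0.15 over the members and -0.01 over all genes. By complex it was 0.16 in complex I, 0.04 in complex II, 0.05 in complex III, 0.18 in complex IV and 0.15 in complex V. Without control ImCD8 replicate 2 the median was 0.01 in complex II and turned to -0.006 in complex III, and without control ImCD8 replicate 3 these medians were 0.08 and 0.09. With library size as the only scaling, the calls were 18 higher and 5 lower, the members' median was 0.08 and that of all genes -0.08. Summed levels of B cell markers were 71.4 to 94.7 CPM in control ImCD4 and 309 to 401 CPM in control ImCD8, nearly all from Ighm, with Ms4a1 at or near 0, and thymic epithelial markers summed to 24.9 to 35.9 against 93.3 to 98.6 CPM, mostly from Ly75, with Foxn1 and Krt5 at or near 0; their part in the lineage difference was not tested.

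**Figure D4:**
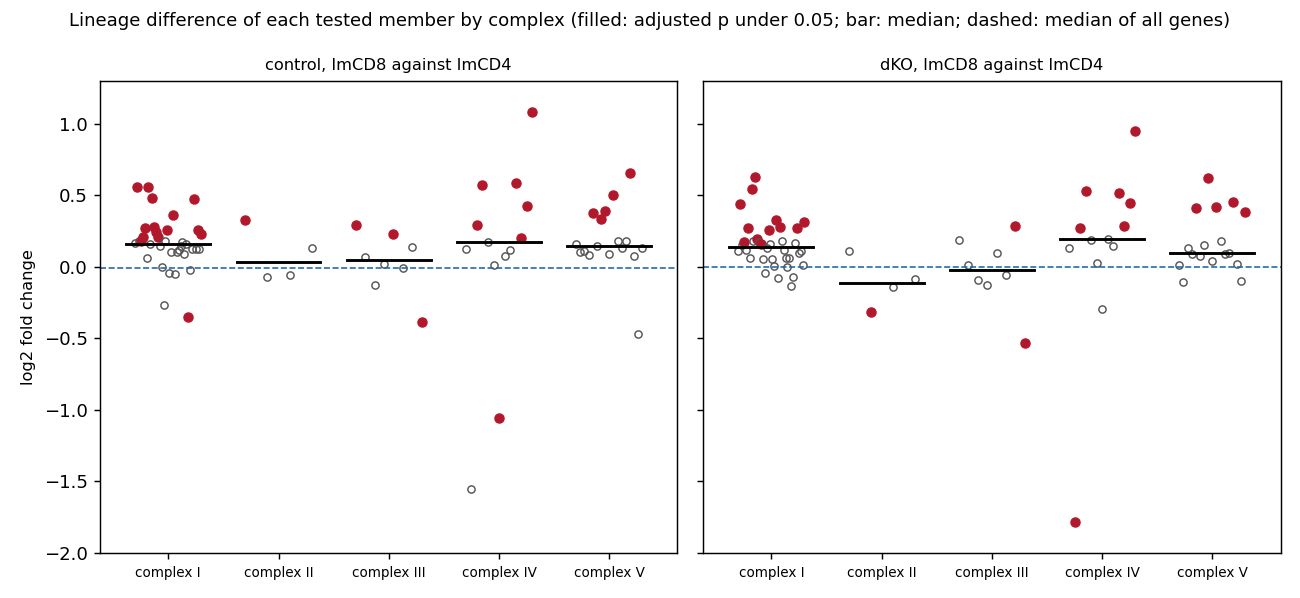
Log2 fold change of ImCD8 against ImCD4 for each tested member, by complex, in controls and in dKO (filled: adjusted p under 0.05; bar: median of the complex; dashed line: median of all genes). Most filled points are above 0, Cox8a is the highest in both panels, and Uqcrq is a called fall in both.

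The largest lineage rise was that of Cox8a, from 129.8, 126 and 118 CPM in control ImCD4 to 257, 269.6 and 265 CPM in control ImCD8. No ImCD4 library came near the ImCD8 range. The log2 fold change was 1.08 ± 0.08 (edgeR adjusted p = 1.46e-08), and in dKO it was 0.95 ± 0.08 (edgeR adjusted p = 5.99e-08). Cox5b rose from 87.5, 93.8 and 88.1 CPM to 137, 137 and 127 CPM (0.57 ± 0.07, edgeR adjusted p = 9.83e-06), again with no overlap. Cox7a2l, known for joining complexes III and IV into supercomplexes, had a log2 fold change of 0.59 ± 0.11 (edgeR adjusted p = 0.000334). The tissue-type form Cox6b2 went the other way, from 4.0, 4.64 and 4.13 CPM to 1.90, 1.83 and 2.34 CPM (-1.06 ± 0.29, edgeR adjusted p = 0.00737). Per kilobase it made up 2.05% ± 0.28 of the Cox6b1 and Cox6b2 counts in control ImCD4 and 0.97% ± 0.15 in control ImCD8 (SD, n = 3). Cox4i2, the form linked to low oxygen, was at most 0.579% of the Cox4i1 and Cox4i2 counts per kilobase in any library, and Cox4i1 itself was at 226, 214 and 211 CPM in control ImCD4 and 228, 262 and 219 CPM in control ImCD8.

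In complex I, 14 members were higher in control ImCD8 and 1 was lower. Ndufa4 was at 165, 165 and 168 CPM in control ImCD4 and 235, 255 and 245 CPM in control ImCD8 (0.56 ± 0.07, edgeR adjusted p = 6.06e-06). Ndufa10, a subunit of the membrane arm, was at 100.2, 109 and 93.2 CPM against 145, 154 and 145 CPM (0.56 ± 0.07, edgeR adjusted p = 1.33e-05). Both had every ImCD8 library above every ImCD4 library. Of the N module, 6 of 10 subunits were higher, Ndufa6 (0.48), Ndufa7, Ndufa2, Ndufv1, Ndufv3 and Ndufa12 (0.18), and 1, Ndufs4, was lower. Ndufs4, a late-assembled subunit whose loss in mice causes a Leigh-like disease, fell from 136, 125 and 125 CPM to 107, 102 and 94.2 CPM (-0.35 ± 0.08, edgeR adjusted p = 0.00256), and its groups did not overlap.

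In complex II, 1 of 4 subunits was called. Sdha rose from 325, 353 and 318 CPM in control ImCD4 to 394, 445 and 409 CPM in control ImCD8 (0.33 ± 0.07, edgeR adjusted p = 0.00198). Sdhb was at 291, 281 and 287 CPM against 273, 282 and 265 CPM, which overlapped (-0.07 ± 0.07, edgeR adjusted p = 0.456). In complex III, Uqcr10 (0.29 ± 0.08) and the core protein Uqcrc2 (0.23 ± 0.07) were higher in control ImCD8, while Uqcrq fell from 199.6, 199 and 199 CPM to 151, 161 and 146 CPM. All ImCD8 libraries were below all ImCD4 libraries for Uqcrq, with a log2 fold change of -0.38 ± 0.07 (edgeR adjusted p = 0.00047).

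In complex V, 5 members were higher in control ImCD8 and none was lower. Atp5h rose from 235, 228 and 221 CPM to 313, 339 and 317 CPM (0.50 ± 0.07, edgeR adjusted p = 4.42e-05). Atp5l, subunit g of the membrane part, rose from 26.1, 28.9 and 30.7 CPM to 43.6, 48.9 and 43.4 CPM (0.66 ± 0.10, edgeR adjusted p = 7.62e-05). Neither gene overlapped between the populations. Atp5l is uncertain because pseudogene rows of the same name, Atp5l-ps1, Atp5l-ps2 and Atp5l2-ps, held 113, 91 and 654 counts beside its 4111, and reads that fit both may have been split or dropped. The c ring has 3 genes for the same mature protein. Atp5g3 made up 60.4% ± 1.40 of their counts per kilobase in control ImCD4 and 55.8% ± 0.40 in control ImCD8, Atp5g2 14.9% ± 1.56 and 17.1% ± 0.65, and Atp5g1 24.6% ± 0.47 and 27.1% ± 0.89 (SD, n = 3). Atp5g1 (0.34 ± 0.08) and Atp5g2 (0.39 ± 0.11) passed the lineage test and Atp5g3 (0.09 ± 0.08) did not.

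The lineage comparison in dKO called 27 of 78 members (34.6%), 24 higher in ImCD8 and 3 lower, where 43.7% of all genes were called, 22.1% higher and 21.6% lower. The groups did not overlap for 33 members that were higher (42.3%, against 25.6% of all genes) and for 3 that were lower (3.8%, against 26.2%). The medians for complexes I to V were 0.14, -0.11, -0.02, 0.20 and 0.10. The 3 lower members were Uqcrq, Sdhb and Cox4i2. Uqcrq was at 234, 228 and 241 CPM in dKO ImCD4 and 179.8, 156 and 151 CPM in dKO ImCD8 (-0.53 ± 0.07, edgeR adjusted p = 2.26e-05). Sdhb was at 342, 369 and 394 CPM against 317, 294 and 276 CPM (-0.32 ± 0.07, edgeR adjusted p = 0.00179). The groups did not overlap for either gene. Cox4i2 stood at 0.749 to 1.34 CPM against 0 to 0.552 CPM, with a fitted log2 fold change of -1.79 ± 0.68 (edgeR adjusted p = 0.0432) that rests on very few counts. This comparison shares its libraries with the dKO comparisons above. The count of calls fell to 17 without dKO ImCD8 replicate 1.

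Other genes of the pathway were read beside the members, in 5 lists. In ImCD4 13.4% of all genes were called, 7.26% higher and 6.16% lower. The share called was 66.7% of the 3 carriers and subunits outside the symbol rule, which were Cycs, Cyc1 and Atpif1. It was 6.8% of the assembly factors and 7.1% of the regulators. It was 23.1% of the citric acid cycle genes and 15.4% of the mitochondrial DNA genes. Of the carriers and subunits outside the rule, 2 of 3 were higher in dKO ImCD4. Cytochrome c (Cycs) was at 112, 109 and 120.3 CPM against 138, 139 and 144 CPM (0.30 ± 0.07, edgeR adjusted p = 0.0111). Cytochrome c1 (Cyc1) was at 146, 163 and 156 CPM against 169, 195 and 182 CPM (0.23 ± 0.07, edgeR adjusted p = 0.0403). In both the dKO libraries lay above the controls. Atpif1, which is not a carrier, had a log2 fold change of 0.12 and was not called. Cyc1 is a subunit of complex III that the symbol rule leaves out, so the complex III counts and sums lack it. The call of Cycs was kept in 21 of the 23 alternatives and lost without control ImCD4 replicate 2. That of Cyc1 was lost in 12 of 23, among them each removal of an ImCD4 library except dKO replicate 1. Of 44 tested assembly factors 1 was higher and 2 were lower. Uqcc3, needed for complex III assembly, was at 41.3, 37.0 and 40.5 CPM against 45.5, 49.4 and 47.8 CPM (0.26 ± 0.08, edgeR adjusted p = 0.0489). Cox17, the copper chaperone of complex IV, fell from 9.30, 7.51 and 10.6 CPM to 5.44, 5.17 and 5.03 CPM (-0.81 ± 0.21, edgeR adjusted p = 0.0179). Neither gene overlapped between the groups. The call of Uqcc3 was lost in 18 of the 23 alternatives, among them DESeq2, the 3 other scalings and the removal of any 1 ImCD4 library. That of Cox17 was lost in 5, among them the removal of control replicate 1 or 3 or dKO replicate 2.

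Atpaf1, a chaperone that places the beta subunit Atp5b in the F1 part of complex V, was lower in dKO in both populations. It was at 25.0, 24.9 and 26.2 CPM in control ImCD4 and 19.9, 20.3 and 19.7 CPM in dKO ImCD4 (-0.34 ± 0.10, edgeR adjusted p = 0.0333). In ImCD8 it was at 27.7, 30.1 and 25.6 CPM against 20.4, 21.4 and 19.0 CPM (-0.45 ± 0.10, edgeR adjusted p = 0.0128). All dKO libraries were below all controls of their population. The ImCD4 call was lost in 9 of the 23 alternatives, among them the removal of any 1 ImCD4 library, and the ImCD8 call in 4, among them the removal of control ImCD8 replicate 2 or dKO ImCD8 replicate 3. It was the only gene of these 5 lists called in ImCD8, where 6.14% of all genes were called.

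Of the 14 tested regulators 1 was called in ImCD4: Myc, a growth factor-responsive activator of many metabolic genes, at 101, 109.6 and 116 CPM in control and 165, 181 and 201 CPM in dKO (0.74 ± 0.17, edgeR adjusted p = 0.0138), with no overlap. This call was lost without control replicate 1 or dKO replicate 3. Nrf1 (0.06 ± 0.07) and Gabpa (0.04 ± 0.07), whose motifs were searched above, did not pass the test in ImCD4, and neither did Tfam, the mitochondrial DNA packaging and transcription factor (0.11 ± 0.07). Of the 13 citric acid cycle genes 2 were higher and 1 was lower in dKO ImCD4. Citrate synthase (Cs) was at 228, 241 and 203 CPM against 271, 282 and 271 CPM (0.30 ± 0.08, edgeR adjusted p = 0.0191), and Idh3a, a subunit of isocitrate dehydrogenase, was at 100.1, 103 and 95.1 CPM against 113, 122 and 125 CPM (0.27 ± 0.07, edgeR adjusted p = 0.0131). Malate dehydrogenase (Mdh2) fell from 451, 459.9 and 452 CPM to 362, 405 and 383 CPM (-0.24 ± 0.06, edgeR adjusted p = 0.0167). For none of these 3 did the groups overlap. Removing a single library ended the call of Cs for control replicates 1 and 3 and dKO replicate 2, that of Idh3a for control replicate 3 and dKO replicate 2, and that of Mdh2 for control replicates 1 and 2 and dKO replicate 1.

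**Figure D5:**
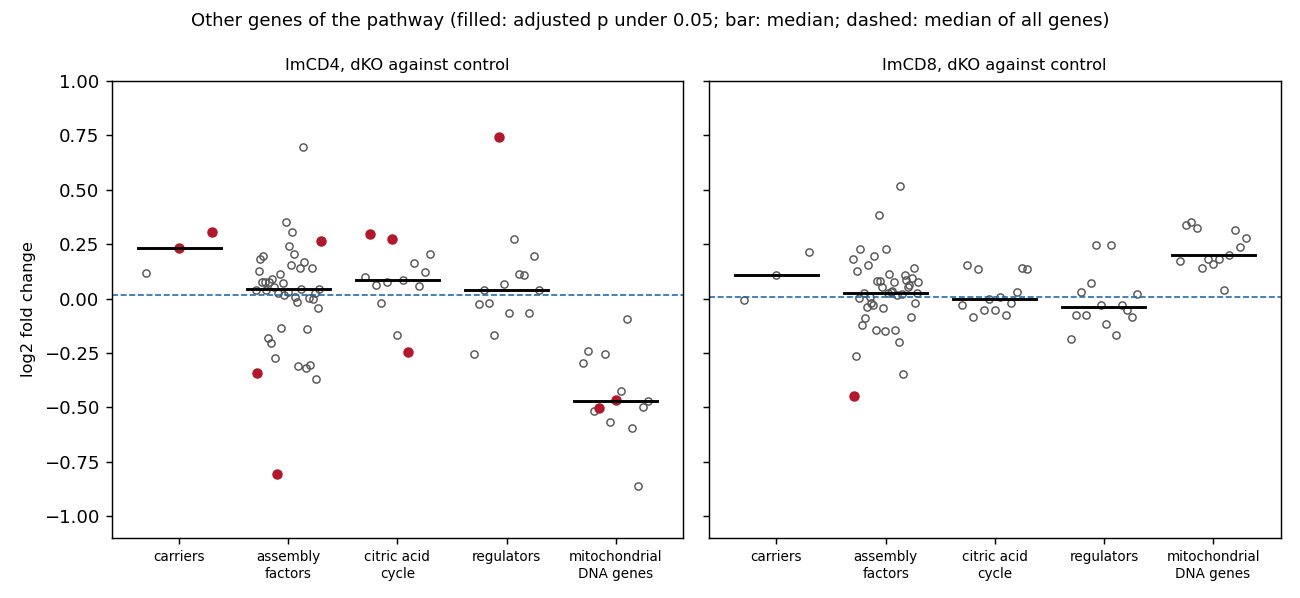
Log2 fold change of dKO against control for the tested genes of 5 lists beside the members, in ImCD4 and ImCD8 (filled: adjusted p under 0.05; bar: median of the list; dashed line: median of all genes). The mitochondrial DNA genes lie below 0 in ImCD4, with a median of -0.47, and above 0 in ImCD8, with a median of 0.20.

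The 13 protein genes of mitochondrial DNA, which make the partner subunits of complexes I, III, IV and V, went the other way from the nuclear sums in ImCD4. They summed to 4868, 4101 and 4229.9 CPM in control ImCD4 and 3479, 2338 and 3466 CPM in dKO ImCD4, without overlap and with a ratio of 0.703 between the means. Multiply aligned reads were left out, and these sums took 0.236% to 0.696% of gene counts. Levels were uneven, with mt-Co1 at 957 to 1261 CPM and mt-Co2 at 62.6 to 76.0 CPM in control ImCD4. What the left-out reads would add to these genes was not tested. Of the 13, mt-Co2 (-0.50 ± 0.14, edgeR adjusted p = 0.0271) and mt-Nd1 (-0.47 ± 0.14, edgeR adjusted p = 0.0438) were called lower. The call of mt-Co2 was lost in 4 of the 23 alternatives, among them the removal of control replicate 1 or 2 or dKO replicate 2. That of mt-Nd1 was lost in 10, among them the removal of any 1 ImCD4 library except dKO replicate 3, and of dKO ImCD8 replicate 1 or 2. In ImCD8 they summed to 6529, 4398 and 4607 CPM against 5807, 5199 and 7272 CPM, which overlapped, and none was called. For the difference of the effects none of the 13 was called, where 0.433% of all genes were. Their median was -0.74, and 10 of them had an unadjusted p under 0.05, where 9.98% of all genes did. The 13 genes are not independent of each other, and no test was made over the list. The difference was -0.83 for mt-Co2 (edgeR adjusted p = 0.101) and was called in 3 of 22 alternatives, which were no filter, DESeq2 and the removal of control ImCD8 replicate 1. For mt-Nd1 it was -0.63 (edgeR adjusted p = 0.284), called only with no filter. Over the alternatives the adjusted p ran from 1.83e-07, with no filter, to 0.337 for mt-Co2 and from 4.2e-05 to 0.787 for mt-Nd1. The ratio of mitochondrial to nuclear sums was 0.401, 0.343 and 0.362 in control ImCD4 and 0.268, 0.178 and 0.259 in dKO ImCD4. All 3 dKO ratios were below all 3 control ratios.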

How the data were processed

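The submitters' processing notes name cutadapt 1.18, STAR 2.6.1, HTSeq and the build mm10; annotation and strand setting: not given in the sources used here. The authors deposited unnormalized counts, whole numbers for 53656 gene symbols, and 5 summary rows in each table. Left out with the summary rows were reads outside genes (10.5% to 16.4%), ambiguous reads (5.37% to 5.82%) and multiply aligned reads (3.87% to 5.39%). Reads of a gene and an overlapping or antisense gene cannot be told apart. By GENCODE M21, 29 of the 84 members have exons that overlap another gene, among them none of the 8 called in a dKO comparison.

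The counts were fitted with edgeR 4.0.16 under R 4.3.3 (filterByExpr, TMM factors 0.946 to 1.04, robust quasi-likelihood fit of 4 group means to all 12 libraries, 8 residual degrees of freedom, 5 contrasts, two-sided). The whole table was fitted and the code was tested on simulated data. CPM use the TMM-scaled library size. Coordinates and transcript lengths (83 of 84 symbols matched) are from GENCODE M21, GRCm38, and promoters from RefSeq. Within-group pairs of libraries differed beyond counting noise. Replicate numbers follow the order of records and only name libraries. An exact permutation test of 3 against 3 cannot go below p = 0.1.

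Values in every library are given for up to 4 called members of a complex in each dKO comparison and up to 2 in the control lineage comparison, for the members just above the threshold, for tissue forms and their partners, and for called genes of the other lists. Sdhc, Cox5b, Ndufa6, Ndufa9, Tfam, Nrf1, Gabpa, Atp5s, Atp5g1 and Cox7a2l were named after their values were seen. The members and lists were chosen with earlier results of these data known. The level of 1 marker gene is not reported here.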

Additional observations from a re-analysis of the deposited data

How the results depend on the processing

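The alternatives were other scalings (RLE, upper quartile, library size only), DESeq2 1.42.0, limma-voom (limma 3.58.1), other filters, a minimum fold of 1.2, only the libraries compared, each library left out in turn, and the third library of all 4 groups left out. No called member changed direction. In ImCD4 the 7 calls became 0 with the minimum fold, 2 (Sdhb and Atp5b) without the third libraries, and 3 to 9 with 1 library left out, with 3 (Sdhb, Atp5b and Atp5h) without control ImCD4 replicate 3 and 4 (Sdhb, Ndufs7, Cox8a and Atp5h) without dKO ImCD4 replicate 2. Sdhb was called in 22 of 23 alternatives. In ImCD8 the 1 call became 0 with library size only, limma-voom, the minimum fold, only the libraries compared, or without the third libraries, 2 with no filter (Ndufa6 and Cox7b), and 0 to 4 with 1 library left out, with 4 (Ndufa6, Atp5g2, Atp5h and Uqcrh, but not Cox7b) without dKO ImCD8 replicate 2. The difference of effects had 0 calls in each alternative run. The lineage counts became 11 in controls and 11 in dKO with the minimum fold, and 24 to 33 and 17 to 27 with 1 library left out. Of the medians, complex V in ImCD4 was 0.064 without the third libraries, and with library size only the control lineage medians were 0.093 in complex I, 0.079 in complex V and 0.078 over all members. With 1 library left out the ImCD8 medians ran from -0.029 to 0.074 in complex I, -0.0083 to 0.13 in complex III, 0.040 to 0.22 in complex IV and 0.033 to 0.13 in complex V, with both values below 0 at dKO ImCD8 replicate 1 left out. The causes were not tested. Settings added after seeing the data, with Ndufa4 in complex IV and without Atp5s and Atp5sl in complex V, left the medians within the spread between libraries. Also added then was a term marking the third library of each group, which gave 11 calls in ImCD4 (the 7 with Ndufb10, Cox5b, Ndufa4 and Atp5g1), 2 in ImCD8 (Cox7b and Atp5h), 0 for the difference, and 38 and 32 for the lineage in controls and dKO. By the labels these libraries share only a place in the order of records. On the third principal component they lay at -17.0 and -13.9 in control and dKO ImCD4. In control and dKO ImCD8 they lay at -14.1 and -29.2, and every other library had a positive value. In ImCD4 their Cd8a was 23.0 CPM in control and 23.7 CPM in dKO, against 67.6 to 89.1 CPM in the other ImCD4 libraries. What these libraries have in common was not tested. The lowest and highest gene counts, 7315833 and 10943143, leave members below about 5 CPM, such as Cox6b2 and Cox4i2, with few counts. No paired analysis was possible because the labels give no replicate numbers that pair libraries of different groups.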
